A study of Homo sapiens with 16 samples.

Results

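Accessible chromatin was described around SOX2, in a window that reached 500 kb to either side of the gene. SOX2 lies at chr3:181711925-181714436 (hg38), and the window at chr3:181211925-182214436. All 815 peaks that 16 ATAC-seq libraries had in this window were taken, of 1728050 in the series, and peaks that overlapped by at least 1 base were merged across libraries. This gave 121 regions, of 321056 in the series. Of these, 10 lay in the gene or within 20 kb of it and 111 farther out, 58 at lower and 53 at higher coordinates.

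ATAC-seq maps open chromatin by the cuts of the Tn5 transposase. The cells came from brain organoids enriched for dorsal telencephalon. Their source was H9, an established line of human embryonic stem cells, labelled wild type. All groups share a double reporter: P2A-EGFP stood in place of the stop codon on one SOX2 allele, and dTomato under the human Synapsin1 promoter was inserted at AAVS1. Sorted SOX2::EGFP+ cells, called progenitors here, and sorted hSyn1::dtomato+ cells, called neurons, were each taken on days 40, 60, 90 and 120, with 2 libraries per population and day. Whether paired libraries of a group stem from separate cultures is not given, so the p-values reflect only the spread among these libraries, and that spread may be technical. All came from a single line, and the progenitor sort read the product of SOX2 itself, so accessibility at this gene cannot be told apart from the way the cells were chosen.

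SOX2 encodes an HMG-box transcription factor that keeps neural progenitors undifferentiated and is switched off in most neurons as they form. In vertebrates its expression in different parts of the nervous system is driven by separate enhancers, many of them far from the gene. The gene has no introns and sits inside SOX2-OT, a long non-coding RNA gene read in the same direction, and no other protein-coding gene lies in the window. The RefSeq table lists 13 annotations there, of which 7 are pseudogenes and 5 are long non-coding RNAs. Of the 121 regions, 70 lay inside SOX2-OT and 42 in no annotated gene. SOX2-OT begins at chr3:181056680, outside the window, and only its internal start at chr3:181610334 was examined. In all, 3 regions covered an annotated start with an entry in the promoter table, those of SOX2, SOX2-OT and LOC102724604.

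The 250 bases before 2 of these starts are shown because the number of libraries whose peaks covered or touched them differed between the populations. They are RefSeq sequences of GRCh38.p14 on the forward strand, for SOX2 at chr3:181711675-181711924 and for SOX2-OT at chr3:181610084-181610333. Capitals mark matches to 7 short motifs searched on both strands.
SOX2: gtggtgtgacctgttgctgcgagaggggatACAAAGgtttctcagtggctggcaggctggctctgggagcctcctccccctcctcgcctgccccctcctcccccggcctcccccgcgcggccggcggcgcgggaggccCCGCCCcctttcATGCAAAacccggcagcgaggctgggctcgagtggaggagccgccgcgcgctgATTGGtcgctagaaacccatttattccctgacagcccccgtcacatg
SOX2-OT: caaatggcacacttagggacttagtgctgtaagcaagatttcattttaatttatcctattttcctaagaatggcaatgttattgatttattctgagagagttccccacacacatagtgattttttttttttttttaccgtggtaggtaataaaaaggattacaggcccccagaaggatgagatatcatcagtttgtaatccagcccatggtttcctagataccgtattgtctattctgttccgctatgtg
The motifs were the SOX-type words ACAAAG and ACAATG, the POU-type word ATGCAAA, the CCAAT box, the GC box GGGCGG, the E-box CAGCTG and the TATA word TATAAA. The SOX2 stretch held ACAAAG beginning 220 bases before the start and ATGCAAA at 100 bases, and on the reverse strand GGGCGG at 112 bases and CCAAT at 47 bases. Of 34961 promoter stretches of this length, 13.7% held ACAAAG, 3.93% ATGCAAA, 42.7% GGGCGG and 32% CCAAT. The SOX2-OT stretch held none of the 7. G and C made up 68.8% of the SOX2 stretch and 36.8% of the SOX2-OT stretch, against a median of 58.4% over all stretches. The SOX2 stretch was covered in full by peaks in 8 of 8 progenitor and 5 of 8 neuron libraries. A peak touched the SOX2-OT stretch in 7 of 8 progenitor libraries and in 0 of 8 neuron libraries.

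Sequencing depth is unknown, since the lists carry no counts of reads. What was called ranged from 36.9 to 103 Mb of covered sequence per progenitor library and from 54.8 to 104 Mb per neuron library. The second day 120 progenitor library stood apart with 36.9 Mb, against at least 77.6 Mb in the other progenitor libraries. Lengths are therefore given both as called and per Mb of the library's own peaks. Of the radial glia markers, 4 of 8 had higher cover in progenitors within 20 kb of the gene (HES1, SLC1A3, VIM, PAX6) and 0 lower (limma, adjusted p under 0.05). Of the neuron markers 0 of 8 were higher and 2 lower (RBFOX3, MAPT). Over all genes, 9.9% were called higher and 11.1% lower in this comparison. Progenitors were also higher at 2 of 4 astroglia, 1 of 3 choroid plexus (TTR) and 2 of 4 GABAergic markers (DLX1, DLX2), with 0 lower, while 0 of 4 oligodendrocyte and 0 of 2 pluripotency markers were called. Of the mesenchymal and the microglia markers 1 of 3 each was lower (COL3A1, C1QA). The summed cover of every one of these 9 lists overlapped between the populations, as for radial glia with 45.2 to 119 kb in progenitors and 48.4 to 91.5 kb in neurons, and for choroid plexus with 2.33 to 6.40 and 1.27 to 3.89 kb. No peak within 1 kb of either gene end was listed at POU5F1, NANOG, AIF1, COL3A1 or SLC1A3 in any library. Of the choroid plexus markers, TTR had one in 8 progenitor and 3 neuron libraries, FOLR1 in 6 and 1, and KCNJ13 in 6 and 0. The part of other cell types in the results below was not tested.

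Beyond the 20 kb around SOX2, progenitors had about double the accessible sequence that neurons had. At day 40 the progenitor libraries had 39.7 and 46.5 kb covered and the neuron libraries 35.6 and 25.2 kb. At day 60 the values were 45.1 and 35.6 kb in progenitors and 15.2 and 7.66 kb in neurons. Day 90 gave 50.8 and 48.0 kb against 21.5 and 19.0 kb, and day 120 gave 45.4 and 19.9 kb against 19.2 and 16.04 kb. The groups overlapped as called, through the second day 120 progenitor library and the first day 40 neuron library. The means were 41.4 ± 9.91 kb (SD, n = 8) in progenitors and 19.9 ± 8.14 kb (SD, n = 8) in neurons, a ratio of 2.07 (exact permutation test, two-sided, p = 0.00124, 0.00166 after adjustment over 12 values compared). Per Mb of the library's peaks, progenitors stood at 458 to 561 bases with a median of 513 and neurons at 140 to 341 with a median of 263. On that scale the groups did not overlap, and the p of 0.000155 is the smallest the exact permutation test allows with 8 against 8 libraries (adjusted 0.000622). In these sorted pools, fewer cells with an open region and less opening per cell cannot be told apart.

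**Figure D1:**
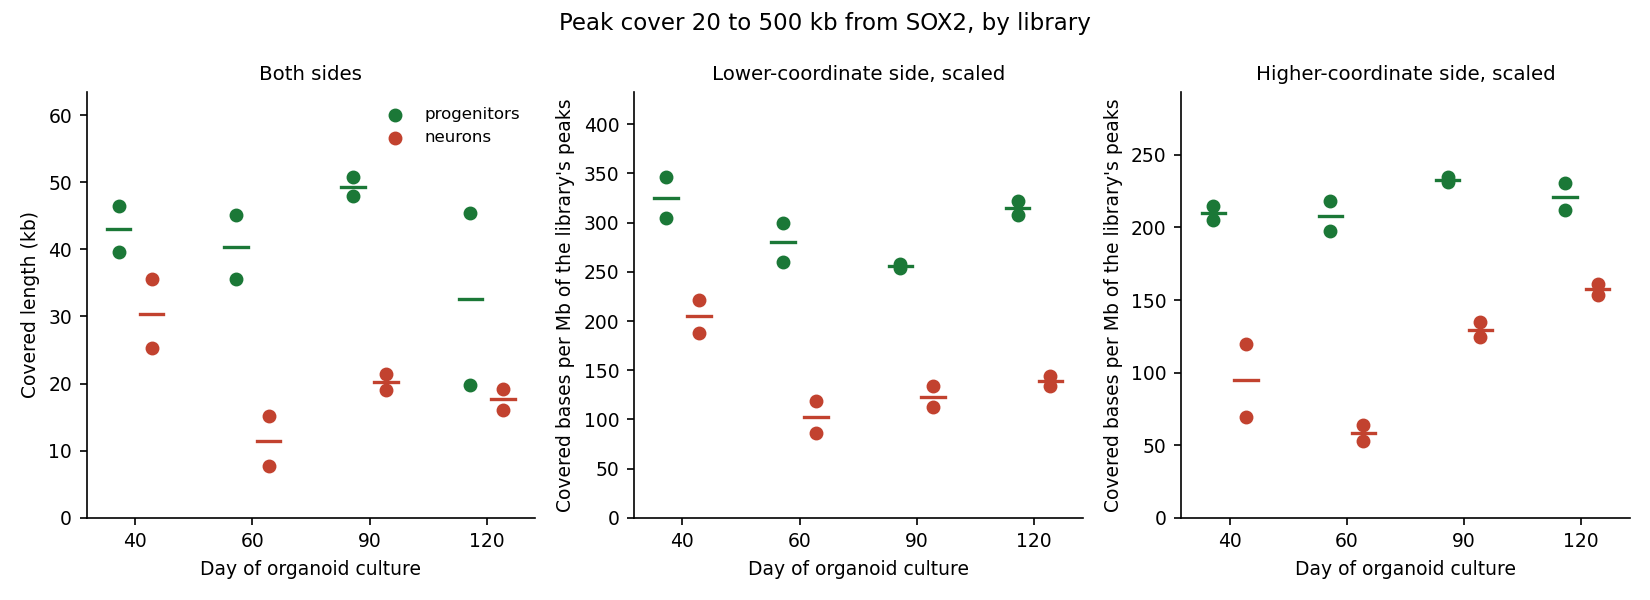
Peak cover 20 to 500 kb from SOX2 against day of organoid culture, as kb on both sides together (left), and as bases per Mb of the library's own peaks on the lower-coordinate side (middle) and the higher-coordinate side (right). Points are libraries, bars group means of 2; the progenitor libraries lie above all neuron libraries in both scaled panels, and the neuron points on the higher-coordinate side are highest on days 90 and 120.

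The same window was fitted for 19931 protein-coding genes with limma, on log2 of covered bases plus 2000, less log2 of the library's total. SOX2 had a progenitor minus neuron difference of 0.98 ± 0.068 (SE; adjusted p 9.396e-10), the 17th highest value of all genes. Over all genes 14.6% of such windows were called higher in progenitors and 16.1% lower. Of the 16 genes above SOX2, 12 lie within 353 kb of each other on chromosome 1, most of them members of the PRAMEF family, so that their windows largely repeat one another. GPR180, another of the 16, is a near neighbour of SOX21 on chromosome 13. Without the second day 120 progenitor library the difference at SOX2 was 0.97, and without the shortest list of each population it was 0.94.

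The difference was called on each day, with different sizes. It was 0.82 ± 0.14 (SE; limma, adjusted p = 0.000523) at day 40, where 9.16% of all windows were called higher. Day 60 had the largest difference, 1.42 ± 0.14 (adjusted p = 1.897e-06), the second highest of all genes on that day, and 3.72% of windows were called higher. At day 90 it was 0.88 ± 0.14 (adjusted p = 0.00325, with 1.31% of windows called), and at day 120 it was 0.80 ± 0.14 (adjusted p = 0.000955, with 6.36% called). Without scaling to the amount called, the day 40 and day 120 calls were lost (differences 0.49 and 0.72, adjusted p 0.559 and 0.921). The day 90 call was lost without either progenitor library of that day (0.87 and 0.89, adjusted p 0.0541 and 0.0781), without its second neuron library (0.79, adjusted p 0.0827) and in lists of equal length (0.67, adjusted p 0.0638). The differences between days were not tested.

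The excess was found on both sides of the gene. At lower coordinates progenitors had 11.3 to 28.7 kb covered with a median of 25.6 kb, and neurons 4.75 to 23.1 kb with a median of 9.51 kb. At higher coordinates the values were 8.51 to 24.2 kb with a median of 17.9 kb in progenitors and 2.91 to 12.5 kb with a median of 9.29 kb in neurons. Groups overlapped on each side as called, and on neither when scaled. Scaled cover averaged 294 ± 33.3 against 143 ± 43.1 bases per Mb at lower and 218 ± 13.2 against 110 ± 42.2 bases per Mb at higher coordinates (SD, n = 8 each; exact permutation test, p = 0.000155 on either side). Distal sequence made up 75.6 ± 2.65% of the window's cover in progenitors and 76.3 ± 8.77% in neurons (SD, n = 8 each; exact permutation test, p = 0.837), with a wider range in neurons, 61.7 to 88.1%.

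By distance, the means differed by varying amounts. In the 50 kb before the gene progenitors had 7.25 ± 2.01 kb and neurons 2.44 ± 0.766 kb, and in the 50 kb after it 10.5 ± 2.04 and 3.88 ± 1.42 kb (SD, n = 8 each). The populations overlapped in the 50 kb before the gene and did not in the 50 kb after it. Farther out, the interval 300 to 350 kb before the gene held 1.70 ± 0.909 kb in progenitors and 0.183 ± 0.282 kb in neurons, without overlap. The interval 200 to 250 kb after it held 1.49 ± 0.942 and 0.124 ± 0.351 kb, and that 100 to 150 kb before it 2.87 ± 1.09 and 0.525 ± 0.679 kb. From 250 to 300 kb before it the means were 4.85 ± 1.06 and 1.77 ± 0.816 kb, and from 50 to 100 kb after it 1.06 ± 0.452 and 0.174 ± 0.417 kb. From 350 to 400 kb after the gene both populations had 1.67 kb, and from 300 to 350 kb after it progenitors had 0.855 ± 0.622 and neurons 1.03 ± 0.389 kb. The intervals are given as a description, without tests.

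**Figure D2:**
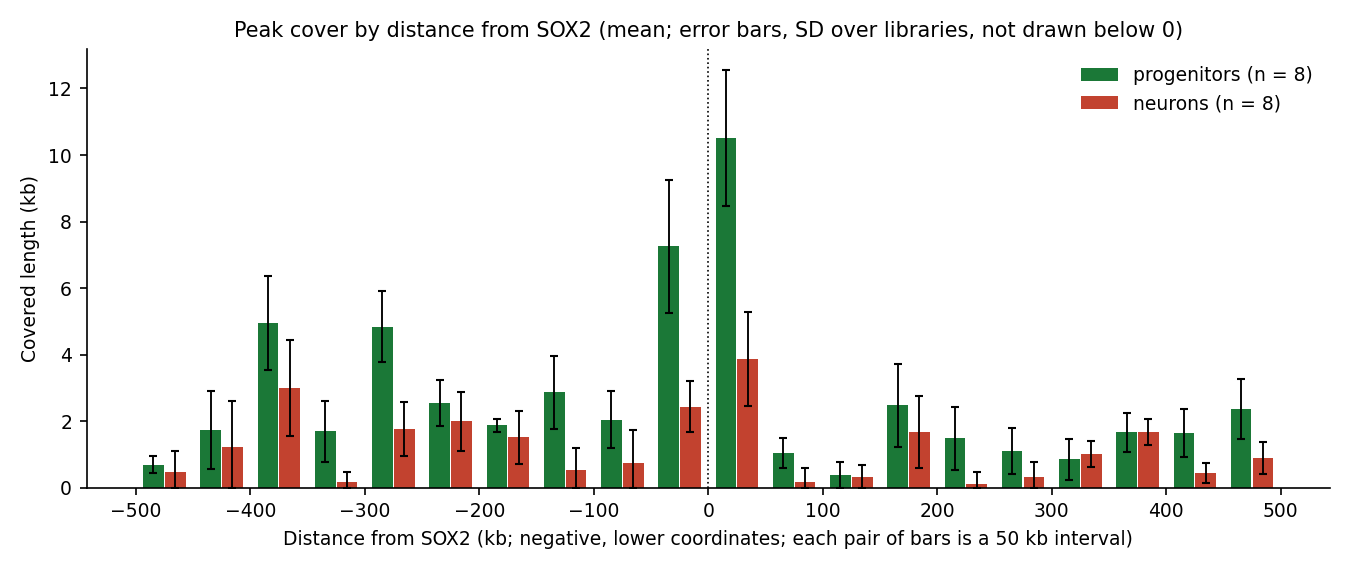
Mean covered length in 50 kb intervals (vertical axis, kb) against distance from SOX2 (horizontal axis, kb), with SD over 8 libraries per population. The tallest progenitor bars flank the gene, and the tallest neuron bars lie 0 to 50 kb after it (3.88 kb) and 350 to 400 kb before it (3.01 kb). The neuron bar exceeds the progenitor bar only from 300 to 350 kb after the gene, and from 350 to 400 kb after it both are 1.67 kb.

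At SOX2 itself both populations had a peak in every library, but over different bases. The merged region, chr3:181707759-181713259, was 5501 bases wide. Its part before the start of the gene was covered over 1210 to 4166 bases in progenitors with a median of 2913, and over 298 to 1236 bases in neurons with a median of 768 (exact permutation test, p = 0.000311, adjusted 0.000622). The ranges overlapped through the second day 120 library of each population, at 1210 bases in progenitors and 1236 in neurons. Within the 2512 bases of the gene the order was the other way round. Neuron libraries had 847 to 1320 bases covered with a median of 1210, and progenitor libraries 124 to 1268 with a median of 416 (exact permutation test, p = 0.0141, adjusted 0.0154). Day 90 progenitors, at 1268 and 1260 bases, lay within the neuron range, day 40 progenitors had 664 and 746 bases, and the other 4 progenitor libraries 124 to 168. In 3 neuron libraries, both of day 40 and the second of day 90, the peak over the gene began 438 to 446 bases inside it, whereas in all progenitor libraries it began 1210 to 4166 bases before the start. As the reporter replaced the stop codon of one allele, sequence at that codon, inside the gene, differs between alleles in every library. Where the codon lies relative to these peak ends was not examined. Over the whole region the difference was 0.65 ± 0.15 on the log2 scale (SE; limma, adjusted p = 0.00265).

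**Figure D3:**
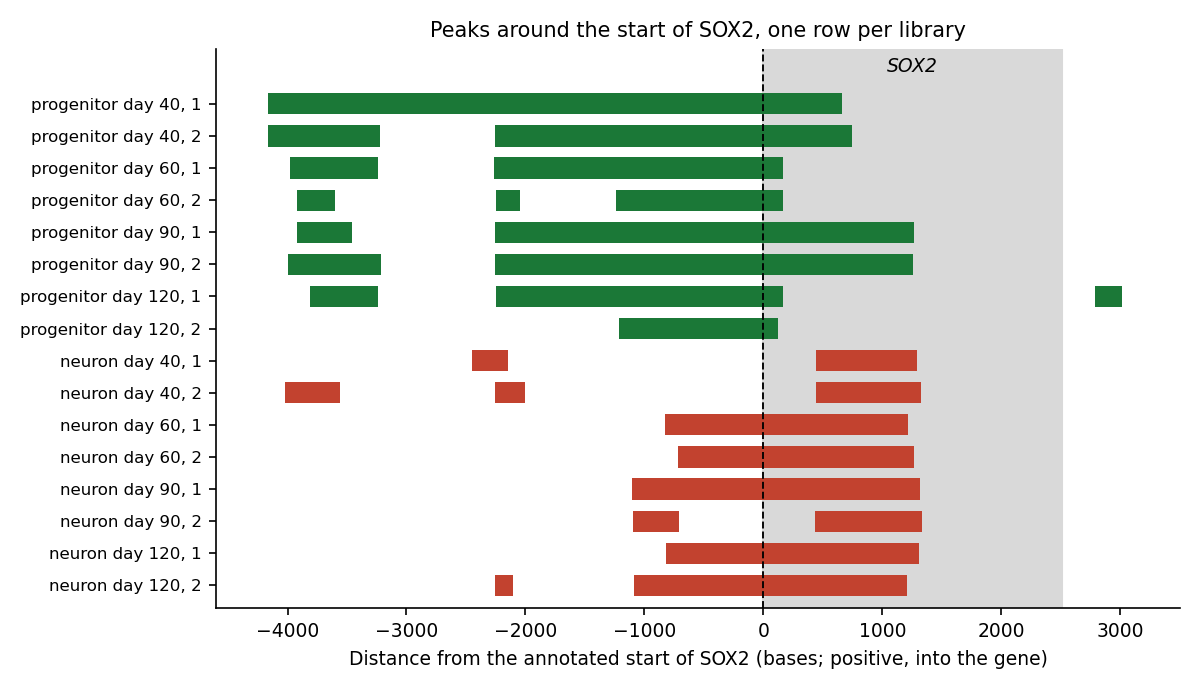
Peaks around the annotated start of SOX2 (dashed line; grey, the gene), in bases from the start, one row per library, with the number after the day giving the library of that group. The progenitor peaks (green) that span the start reach at least 1210 bases outwards and end after 124 to 1268 bases in the gene. The neuron peaks (red) that overlap the gene end 1204 to 1335 bases inside it. Further peaks of both populations lie outside the gene.

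The authors' own peak values placed the strongest peak of the window outside the 20 kb around SOX2 in each of the 16 lists. By −log10 q, as the authors' peak caller gave it, it was in 1 of 4 regions in progenitors, at 214 and 150 kb before the gene and 37.6 and 378 kb after it. In neurons it was the region 390 kb after the gene in all 4 libraries of days 40 and 60 and the region 378 kb after it in all 4 of days 90 and 120. These peaks stood between percentiles 97.5 and 99.9 of their own list in progenitors and between 88.1 and 97.7 in neurons. The peak at SOX2 itself stood between percentiles 51.0 and 78.1 in progenitors and between 45.0 and 87.1 in neurons.

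Counted by region, a progenitor library had a peak in 41 to 66 of the 121 regions, with a median of 58.5, and a neuron library in 19 to 54, with a median of 37 (means 57.6 ± 7.31 and 35.9 ± 10.5, SD, n = 8 each; exact permutation test, p = 0.000466). A peak was seen in all 16 libraries in 11 regions and in 1 library in 32. Progenitor libraries alone had a peak in 47 regions, neuron libraries alone in 18, and both in 56. The share found in progenitors alone was 38.8%, against 26.1% of the regions of the whole series, and that found in neurons alone was 14.9% against 33.1%. Only 22 of the 47 and 11 of the 18 had a peak in at least 2 libraries, a count not taken for the whole series. Presence in 8 against 8 libraries was tested with Fisher's exact test for the 76 regions with a peak in 2 to 14 libraries, adjusted over 182575 such regions genome-wide. It called 4 regions more often open in progenitors and 0 in neurons, where 3.06% and 1.27% of all regions tested were called. At an unadjusted p under 0.05 the counts were 19 and 2, against 11% and 7.16% of all regions tested. The limma fit on the length covered in each region called 43 of 89 regions, or 48.3%, higher in progenitors and 9, or 10.1%, lower, where 17.9% and 18.9% of all 216086 regions were called. In tiles of 10 kb the same fit called 30 of the 50 tiles tested in the window higher in progenitors and 3 lower, where 21.8% and 22% of 118498 tiles were called.

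**Figure D4:**
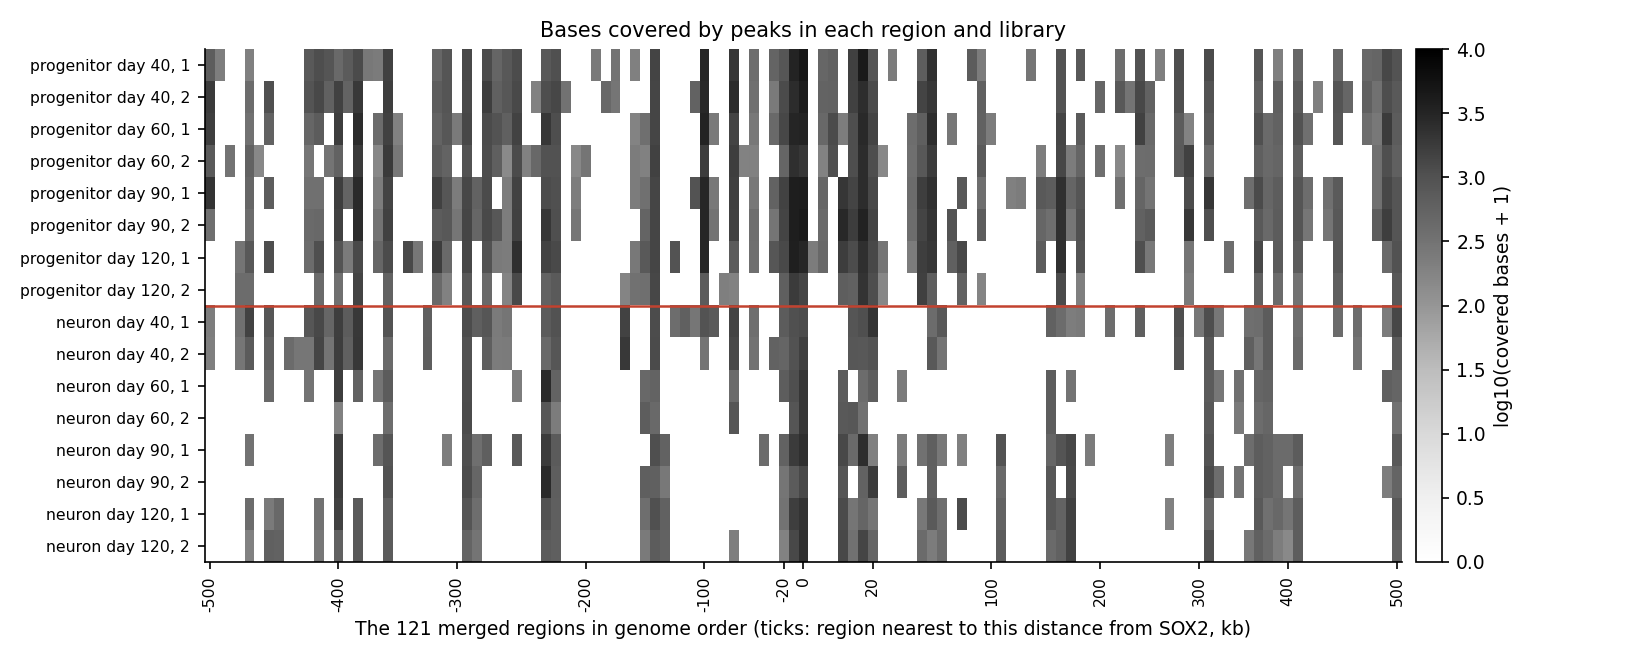
Bases covered by peaks, as log10 of bases plus 1, in each of the 121 regions (columns, in genome order, ticks giving the distance from SOX2 in kb) and each library (rows; progenitors above the red line). Columns dark in all 16 rows are the 11 regions with a peak in every library, and more columns are dark only above the line (47) than only below it (18). Of the 47, 22 are dark in at least 2 rows, and of the 18, 11 are.

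The 43 regions higher in progenitors had differences of 0.49 to 3.15 and a median of 1.19 on the log2 scale, and 35 of them were distal, at a median distance of 252.5 kb. The median width of the 43 was 1618 bases, and 41 of them were also called without scaling. The fit without scaling called all 9 regions higher in neurons too. It also called 13 of the 37 regions left uncalled with scaling, so it was not a stricter test. All 9 regions higher in neurons were distal, 32.5 to 390 kb away, with a median width of 789 bases and differences of -1.39 to -0.56. Of the 80 distal regions tested, 35 were higher and 9 lower in progenitors, and of the 9 tested within 20 kb 8 were higher and 0 lower. The count of regions higher in neurons rose to 16 without the second day 120 progenitor library, while that of regions higher in progenitors was then 41.

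The 4 regions called by presence were all more often open in progenitors. The region chr3:181383476-181385309, 327 kb before the gene, had 447 to 1675 covered bases in the 8 progenitor libraries, with a median of 669, and 0 in the 8 neuron libraries (Fisher's exact test, adjusted p = 0.0118; limma difference 2.21 ± 0.22). Next to it, chr3:181386950-181387890 had 195 to 887 bases with a median of 802 in 8 progenitor libraries and a peak of 221 bases in 1 neuron library, the first of day 90 (adjusted p = 0.0323). The region chr3:181715707-181716265 began 1.27 kb after the end of SOX2 and had a peak in 7 progenitor libraries, of 185 to 541 bases, and in 0 neuron libraries (Fisher's exact test, adjusted p = 0.0323). The progenitor library without it was the second of day 120. The region chr3:181796979-181797793, 82.5 kb after the gene, had 174 to 734 bases in 7 progenitor libraries, all but the first of day 120, and a peak in 0 neuron libraries (adjusted p = 0.0323). When a region counted as present only where peaks covered at least 50% of it, the test called none of the 4 (adjusted p = 0.136 to 0.675). The second and the last of the 4 also lost the call without the shortest list of each population (adjusted p = 0.0670 each) and with peaks of −log10 q of at least 2 (0.0928 and 0.0716). In lists of equal length the second had an adjusted p of 0.0595 and the third 0.258. In the limma fit all 4 were called, but it used the same peaks and regions, so this is no separate support.

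Singled out after its values were seen, the region chr3:181608946-181612135 covered the internal SOX2-OT start whose stretch is printed above. It had the largest difference of the window, 3.15 ± 0.21 (SE; limma, adjusted p = 3.61e-07). Day 40 progenitor libraries had 2958 and 2924 bases covered, those of day 60 had 3164 and 1708, those of day 90 had 2974 and 2970, and those of day 120 had 3006 and 705. Among neurons only the day 40 libraries had a peak there, of 934 and 296 bases, and none of the 6 others did. By presence, 8 against 2 libraries, it was not called (Fisher's exact test, adjusted p = 0.0800). The other start of the promoter table that a distal region covered, that of LOC102724604, an uncharacterised long non-coding RNA, lay in chr3:181442081-181443067. It had a peak in 6 progenitor libraries and in the 2 neuron libraries of day 40 (difference 1.15 ± 0.30, adjusted p = 0.00619).

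Of the 6 widest regions with a peak in all 16 libraries, 4 were higher in progenitors. These were the region over SOX2, chr3:181698357-181702329 at 9.60 kb before the gene (difference 1.23 ± 0.15), chr3:181726325-181730765 at 11.9 kb after it (1.55 ± 0.26) and chr3:181343519-181345353 at 367 kb before it (0.76 ± 0.16). The last is the distal one of the 4, with 546 to 1835 bases in progenitors and a median of 1517.5, and 383 to 972 in neurons with a median of 696.5 (limma, adjusted p = 0.00171). The other 2 did not differ by the test. At chr3:181486016-181488808, 223 kb before the gene, progenitors had 547 to 1960 bases and neurons 451 to 2688 (difference -0.037 ± 0.19, adjusted p = 0.887). At chr3:181312008-181313893, 398 kb before it, progenitors had 340 to 1670 bases and neurons 196 to 1694 (difference -0.30 ± 0.26, adjusted p = 0.36).

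With age, distal cover as a whole did not pass the test in progenitors, and in neurons it passed under some settings only. In progenitors the distal cover per Mb averaged 511.5 ± 42.1 on days 40 and 60 and 512.5 ± 27.1 on days 90 and 120 (SD, n = 4 each), a limma difference of 0.015 ± 0.096 (adjusted p = 0.938, 2.71% of windows called higher). In neurons it averaged 230 ± 88.6 early and 275 ± 29.4 late, a difference of 0.30 ± 0.096 (adjusted p = 0.0429, 5.84% called higher). Scaling alone gives a window without any bases a difference of 0.11 in progenitors and 0.26 in neurons, and without scaling the neuron value was 0.038 (adjusted p = 0.911). The neuron call was also lost without any single progenitor library of days 40 to 90, without the second neuron library of day 40 or day 60, and without any neuron library of days 90 and 120 (0.21 to 0.34, adjusted p 0.0541 to 0.245). The difference between the populations' changes was -0.29 ± 0.14 (adjusted p = 0.343).

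The 2 sides were also fitted apart, a split made after the values were seen, and the difference between sides was not tested. At higher coordinates the day 40 neuron libraries had 120 and 69.7 bases per Mb, those of day 60 had 63.7 and 53.0, those of day 90 had 135 and 125, and those of day 120 had 161 and 154. All late values lay above all early ones (exact permutation test, two-sided, p = 0.0286, the smallest 4 against 4 libraries allow, and 0.286 adjusted over 10 comparisons of age). In the limma fit of this side over 19864 genes the difference was 0.79 ± 0.13 (adjusted p = 0.000269, 5.16% of windows called higher), and without scaling 0.53 (adjusted p = 0.194). At lower coordinates the day 40 neuron libraries, at 221 and 188 bases per Mb, were above the other 6, at 86.6 to 145. There the late minus early difference was -0.11 ± 0.11 (adjusted p = 0.61). In progenitors neither side passed the test (0.13 ± 0.13 at higher and -0.061 ± 0.11 at lower coordinates). The difference between the populations' late minus early changes on the higher-coordinate side was -0.66 ± 0.18 (limma, adjusted p = 0.0824). It passed the threshold without the second day 120 progenitor library (-0.73, adjusted p = 0.0138) or the first day 40 neuron library (-0.81, adjusted p = 0.0203).

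Of the 89 regions tested, 13 were higher in late than in early neurons and 3 lower, where 9.7% and 3.24% of all regions were called. Without scaling the counts were 9 and 6, and 9 and 3 regions were called both ways. In progenitors 3 were higher late and 4 lower, where 6.74% and 2.81% were called. Without scaling 3 and 8 were, and 1 and 4 both ways. Within 20 kb of the cell type markers, late neurons were higher at 2 of 8 radial glia markers (SLC1A3, 0.80, limma, adjusted p = 0.00294; FABP7, 0.68, adjusted p = 0.00255), at 1 of 8 neuron markers (MAPT) and at 1 of 3 mesenchymal markers (COL3A1, 1.37, adjusted p = 0.0192). They were lower at 1 neuron marker (RBFOX3), and no marker of the other 6 lists was called, where 3.3% of all genes were called higher and 2.37% lower. The summed cover of the radial glia list was 48.4 to 91.5 kb in early and 57.4 to 89.4 kb in late neurons, and their part in the late neuron changes here and on the higher-coordinate side was not tested. Leaving out single libraries moved the neuron region counts between 7 and 15 higher and 1 and 5 lower, and the progenitor counts between 1 and 5 higher and 2 and 8 lower.

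The 6 named for the size of their change had 4 patterns. They were chosen by the differences given here, so the p-values describe them and are no separate support. The region chr3:181719321-181722436, 4.88 kb after the gene, was absent at day 40 in all 4 libraries and wide later. Progenitors of day 60 had 221 and 0 bases, those of day 90 had 1981 and 2922 and those of day 120 had 1655 and 634, a late minus early difference of 3.02 ± 0.29 (limma, adjusted p = 0.000211). Neurons had 685 and 757, 1273 and 888, and 1162 and 1243 bases on the same days (1.897 ± 0.29, adjusted p = 0.000633), so that its cover rose with age in both. Beside it, chr3:181717079-181718244, 2.64 kb after the gene, did the opposite in progenitors. Day 40 libraries had 565 and 548 bases, day 60 libraries 1166 and 1073, and there were 0 in the 4 later progenitor libraries (-2.21 ± 0.33, adjusted p = 0.00105). No neuron library had a peak there, and the populations differed in their change (-2.47 ± 0.46, adjusted p = 0.0169, where 1.52% of regions were called in this direction).

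In LINC01206, a long non-coding RNA gene, chr3:181987409-181988619 had a peak of 992 to 1097 bases in all 4 day 40 libraries of either population. Day 60 progenitors still had 716 and 732 bases and day 60 neurons 0, and no later library had a peak (progenitors -2.33 ± 0.33, adjusted p = 0.000808; neurons -1.05 ± 0.33, adjusted p = 0.0431). Distal regions of late neurons formed the fourth pattern. Both chr3:181567294-181567887, 144 kb before the gene, and chr3:181839455-181840404, 125 kb after it, had a peak in the 4 neuron libraries of days 90 and 120 and in no other library. The bases covered were 549, 262, 577 and 548 at the first and 946, 446, 523 and 674 at the second. Late minus early differences in neurons were 2.01 ± 0.33 (limma, adjusted p = 0.000921) and 2.31 ± 0.34 (adjusted p = 0.000501). Both regions entered the fit only through these late neuron libraries. In the other libraries, with 0 bases, the fitted values differ only through the list totals, so the SE may be too small. The region chr3:181886390-181887922, 172 kb after the gene, had 1330, 1215, 1530 and 1469 bases in late neurons against 0 to 313 in early ones (2.63 ± 0.38, adjusted p = 0.000453), and 0 to 492 in progenitors.

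**Figure D5:**
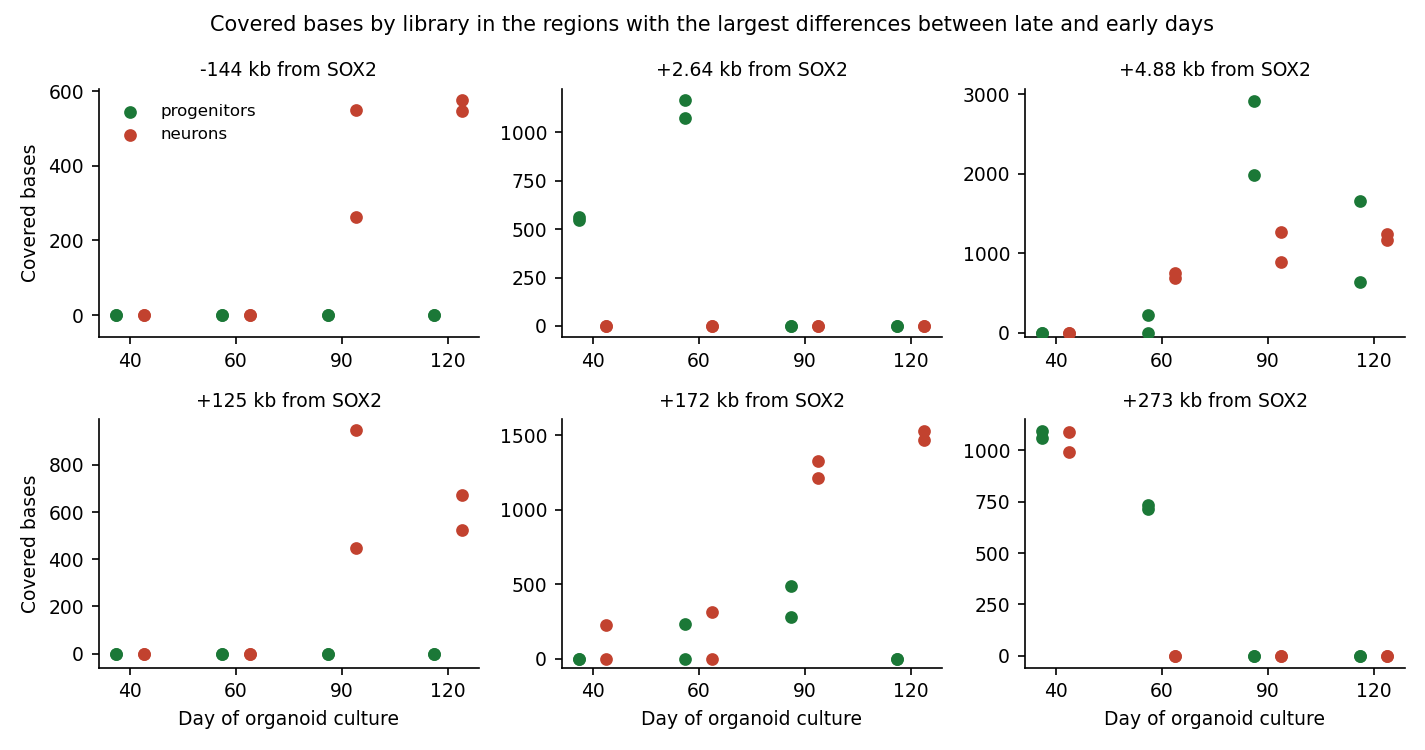
Covered bases (vertical axis) by day of organoid culture (horizontal axis) in the 6 regions with the largest age differences, one panel each, titled by distance from SOX2 (negative, before the gene). Each point is a library; points at 0 overlap. Late neurons alone are above 0 at -144 and +125 kb, early progenitors alone at +2.64 kb, and at +4.88 kb both populations are at 0 on day 40.

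Day by day, the limma fit called 24 of 89 regions higher and 3 lower in progenitors at day 40, where 11% and 11.1% of all regions were called. At day 60 it called 22 and 3 (8.18% and 8.13% of all), and at day 90 18 and 4 (7.65% and 8.43%). At day 120 it called 7 and 7 (6.02% and 5.45%). Regions with a peak in each progenitor library of a day but no neuron library of it numbered 12, 26, 25 and 12 of 121 on days 40, 60, 90 and 120, a pattern that 6.05%, 9.92%, 8.56% and 4.6% of all regions of the series had on those days. The reverse held for 7, 2, 3 and 10 regions, and for 10.7%, 4.99%, 5.31% and 6.58% of all regions. The second day 120 progenitor library, which has the shortest list of all, enters the counts of day 120.

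Factors that work beside SOX2 in neural stem cells showed the same direction in their own distal windows. Of 12 such genes, 9 were higher in progenitors and 0 lower, with a median difference of 0.37 against -0.033 over all genes, of which 14.6% were called higher and 16.1% lower. SOX21, a SOX-family repressor, had 0.88 ± 0.060 (rank 25 of 19931, limma, adjusted p = 7.86e-10). HES1, an effector of Notch signalling, had 0.67 ± 0.059, the POU factor POU3F2 0.57 ± 0.064, and SOX3 and SOX1, of the same subfamily as SOX2, 0.56 ± 0.069 and 0.46 ± 0.085. SOX9, PAX6, POU3F3 and OTX2 were also called, at 0.19 to 0.54. LHX2, NR2E1 and HES5 were not called (0.12, 0.10 and 0.091). Within 20 kb of the gene again 9 of 12 were higher and 0 lower, with LHX2, POU3F2 and HES5 not called, where 9.9% and 11.1% of all genes were called.

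Among the 15 coding genes within 2 Mb of SOX2, the distal windows of 5 were higher in progenitors and of 4 lower, with a median of -0.036, beside the 14.6% and 16.1% of all genes. The highest was FXR1, an RNA-binding protein gene, at 0.46 ± 0.072, followed by ATP11B and DNAJC19 at 0.36 ± 0.064 and 0.35 ± 0.066, and by DCUN1D1 and MCCC1 at 0.25 each. All were below the 0.98 of SOX2, and the windows of FXR1 and DNAJC19 reach into that of SOX2. As windows reach 500 kb to either side, those of the 15 genes also overlap one another. The counts are therefore not of separate stretches. TTC14, CCDC39, USP13 and PEX5L were lower, at -0.41 to -0.23. In the gene and 20 kb to either side, where windows do not reach SOX2, 2 were higher (KLHL6, B3GNT5) and 3 lower (KLHL24, YEATS2, PEX5L), beside 9.9% and 11.1% of all genes, and FXR1 and DNAJC19 were not called (-0.18 and -0.16).

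The genes whose cover within 20 kb was most like that of SOX2 over the 16 libraries were ATP13A4 (Pearson's r = 0.951), SLC35G4 (0.935), DUSP10 (0.933), HAPLN1 (0.929) and F2RL1 (0.920). All lie at least 2 Mb from SOX2 or on another chromosome. These correlations are a description over libraries that share their totals and groups. HAPLN1 encodes a link protein of the hyaluronan matrix and DUSP10 a phosphatase of MAP kinases, and their progenitor minus neuron differences, which the choice by likeness to SOX2 largely fixes, were 1.07 ± 0.13 and 0.82 ± 0.11.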

How the data were processed

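Chromatin accessibility was measured in 16 sorted libraries, 2 for each of 8 groups, with groups and replicate numbers from the sample titles. MACS2 2.1.2, SAMtools 1.9, Picard, BWA 0.7.17 and Trim Galore 0.5.0 are listed, per the submitters' processing notes, and so is the build hg38. Their settings and order were not given in the sources used here. Each library has its own deposited list of broad peaks, so a deeper library can list more and wider peaks. Each peak has, in column 5 as deposited, a score. Also deposited are its ratio, the fold over background from the authors' peak caller, and its −log10 p-value and −log10 q-value. They served to rank and filter peaks inside 1 list only.

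Only chromosomes 1 to 22 and X entered. The number of bases covered by peaks was taken in merged regions, 10 kb tiles and gene windows, with Python 3.11.15 and SciPy 1.17.1. Log2 covered bases (pseudocounts 2000 for distal windows, 500 for windows within 20 kb, 200 for regions), less log2 of the total, entered a fit in R 4.3.3 with limma 3.58.1, as 8 group means with a trend. Genes needed 500 covered bases in 2 libraries and regions a peak in 2, and p-values were Benjamini-Hochberg adjusted over all rows with a threshold of 0.05. The pseudocount shrinks differences of sparsely covered windows. Presence in regions was tested with Fisher's exact test and single values with exact permutation tests. Gene positions and promoters came from RefSeq (GRCh38.p14). The scripts were tested on simulated data.

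The members, gene lists and tests were chosen with earlier results of these data known. Regions named were the one over SOX2, those called by presence, the 6 widest seen in all 16 libraries and the 6 with the largest called age differences. Genes named for likeness were the 5 with the highest Pearson correlation. Alternatives were scaling, peak strength, list length, pseudocount, window size, overlap and leaving out libraries.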

Additional observations from a re-analysis of the deposited data

Results flagged for a closer look

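Of 44 groups of library values examined, 3 had a library far from the rest by Dixon's test, which flags about 1 in 20 by chance if values are normally distributed. That share need not hold for groups with many values of 0. The second day 120 progenitor library had peaks in 41 of the 121 regions, the fewest of the progenitors, and it also has the shortest list. The first day 90 neuron library had 221 bases in the region 324 kb before SOX2, where the other neuron libraries had 0. The same library had 2527 bases in the region 11.9 kb after SOX2, where the other neuron libraries had 329 to 1355.

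The late minus early change differed between the populations in 3 regions of the limma fit, lower in progenitors in each. Leaving out single libraries moved that count between 1 and 13, and it was 11 without scaling and 12 with a pseudocount of 50, with 5 and 3 regions higher. At chr3:181717079-181718244 the difference of changes was -2.47 (adjusted p = 0.0169), with early progenitors alone having the peak, and it passed in all 19 alternatives. At chr3:181839455-181840404 it was -2.20 (adjusted p = 0.0285) and at chr3:181567294-181567887 it was -1.89 (adjusted p = 0.0407), late neurons alone having the peak at both. These 2 passed in 8 and 7 of 19 alternatives, and over all alternatives their adjusted p reached 0.0722 and 0.0975. All 3 regions entered the fit only through the libraries that have the peak, so these p-values are no separate support.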

How the results depend on the processing

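The higher distal cover in progenitors kept its direction and its call in all 27 alternatives (0.82 to 1.04), and the higher cover within 20 kb in all 20. The difference between the populations' changes with age stayed uncalled in 26 of 26. So did the late minus early difference of progenitors, close to 0 (0.015), but its sign changed in 7: it was -0.097 without scaling, -0.018 with 50 kb around the gene left out, -0.050 by number of peaks and -0.0071 without the shortest lists. Without single libraries it was -0.024 to 0.055. Equally close to 0 and uncalled throughout were the difference of changes on the lower-coordinate side (-0.0069 to 0.101 without single libraries) and the region 223 kb before the gene (0.013 without scaling, -0.150 to 0.075 without single libraries). For neurons the late minus early difference kept its direction and was called in 9 of 26. It was lost without scaling (0.038), with peaks of −log10 q of at least 2 (0.28), with 50 kb around the gene left out (0.24), by number of peaks (0.22) and, an alternative chosen after seeing the data, without the shortest list of each population (0.24). Leaving out single libraries gave 0.21 to 0.39. Regions called by presence as more often open in progenitors numbered 4, and 0 with at least 50% of a region covered, 2 without the shortest lists, 6 with regions drawn from bases covered in at least 2 libraries and 4 to 9 without single libraries. Tests of covered length in place of presence called 30 tiles and 43 regions. For neurons the count was 0, and 2 with lists of equal length and 0 without any single library, while covered length called 3 tiles and 9 regions. The 9 regions with higher cover in neurons became 14 without the shortest lists and 6 to 16 without single libraries. Whether same-numbered libraries of a day are pairs is not given. Their deviations correlated at -0.43, 0.41, 0.182 and 0.235 over distal windows, which cannot settle it with 2 libraries per group. With the replicate block the distal difference was 0.98 (adjusted p = 2.513e-09), and the region counts were 33 higher and 5 lower in progenitors. The cause of these shifts was not tested. The unknown depth limits every absence of a peak.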
